A study of Homo sapiens with 12 samples.

Results

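The 8 genes described here remove phosphate groups from small molecules outside or inside the cell: the alkaline phosphatases ALPL, ALPP and ALPI, the phosphatases PHOSPHO1 and PHOSPHO2, and the nucleotidases ENTPD2, ENTPD1 and NT5E. They were taken by symbol from a table of 28278 genes. ALPL, PHOSPHO1 and ENTPD2 were chosen by their log2 change under butyrate, which was among the largest increases in these same libraries, so their butyrate response is given as a description without a test. The other 5 were chosen as family members. Of the 8, 5 passed the filter on low counts (ALPL, PHOSPHO1, ENTPD2, ENTPD1 and PHOSPHO2), and ALPL, PHOSPHO1 and ENTPD2 passed it through the treated groups. Genotype tests of ALPL, PHOSPHO1 and ENTPD2 in untreated cells rest on few counts, and nothing is read from them.

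RNA was sequenced from K562, a human erythroleukaemia line, in 4 groups of 3 libraries. The cells were WT or HRG1-KO, which lack the heme transporter encoded by SLC48A1, and each genotype was left untreated or given 0.75 mM sodium butyrate, a histone deacetylase inhibitor. The first dose came 24 h after plating and the second 48 h later, harvest followed 6 h after that, and the series text places the samples at day 8 of differentiation. How the knockout was made and how many clones it represents are not given in the sources used here, so genotype and clone cannot be told apart. Nothing in the labels says that the replicates were separate cultures, so p-values measure the spread between these libraries, which may be technical.

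Alkaline phosphatases are zinc enzymes held on the outer face of the cell membrane by a glycosylphosphatidylinositol (GPI) anchor. ALPL is the form of bone, liver, kidney and neutrophils, ALPP that of placenta and ALPI that of intestine, and butyrate is a long-used inducer of alkaline phosphatase activity in cultured cells. PHOSPHO1 releases phosphate from phosphocholine and phosphoethanolamine, and is known from bone mineralization and from late erythroid maturation. Outside the cell, ENTPD2 turns ATP mainly into ADP, ENTPD1 (CD39) carries ATP and ADP on to AMP, and NT5E (CD73) turns AMP into adenosine.

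The 250 bases before the transcription start are shown for the 3 genes that were higher under butyrate, and for ALPI, a relative of ALPL without a count in any library. The sequences are from RefSeq on GRCh38.p14, 5′ to 3′ on the strand of the gene, and capitals mark the GC box, GGGCGG or its reverse complement CCGCCC. All 8 genes were found in the promoter table.
ALPL, chr1:21509173-21509422, plus strand: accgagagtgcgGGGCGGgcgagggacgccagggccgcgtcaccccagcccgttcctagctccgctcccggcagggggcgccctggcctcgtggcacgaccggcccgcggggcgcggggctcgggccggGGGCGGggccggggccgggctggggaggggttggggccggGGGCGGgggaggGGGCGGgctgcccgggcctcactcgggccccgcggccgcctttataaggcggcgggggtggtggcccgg
PHOSPHO1, chr17:49230788-49231037, minus strand: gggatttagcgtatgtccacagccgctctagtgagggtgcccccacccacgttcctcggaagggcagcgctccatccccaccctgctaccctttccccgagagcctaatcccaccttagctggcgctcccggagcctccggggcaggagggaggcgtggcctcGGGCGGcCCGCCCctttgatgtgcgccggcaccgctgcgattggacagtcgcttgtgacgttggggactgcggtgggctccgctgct
ENTPD2, chr9:137054062-137054311, minus strand: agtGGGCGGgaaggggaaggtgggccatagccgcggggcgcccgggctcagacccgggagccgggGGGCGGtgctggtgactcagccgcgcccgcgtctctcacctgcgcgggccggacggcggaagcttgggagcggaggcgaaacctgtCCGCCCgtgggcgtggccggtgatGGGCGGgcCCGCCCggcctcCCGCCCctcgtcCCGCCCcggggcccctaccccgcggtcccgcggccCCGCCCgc
ALPI, chr2:232455903-232456152, plus strand: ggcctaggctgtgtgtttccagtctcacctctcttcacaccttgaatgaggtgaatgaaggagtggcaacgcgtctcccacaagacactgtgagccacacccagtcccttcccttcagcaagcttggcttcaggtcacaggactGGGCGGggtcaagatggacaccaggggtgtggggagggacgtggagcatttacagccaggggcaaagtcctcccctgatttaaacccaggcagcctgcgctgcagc

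The ALPL window held 4 GC boxes, that of ENTPD2 held 8, that of PHOSPHO1 held 2 and that of ALPI held 1, counting both strands. Among 35116 windows of the same length, 42.6% held at least 1. The G and C content was 83.6% for ALPL, 80.8% for ENTPD2, 68% for PHOSPHO1 and 58.4% for ALPI, beside a median of 58% over all windows. TATAAA, on either strand, was found in the ALPL window among these 4 and in 10.7% of all windows. CCACCC was found in the windows of ALPL and PHOSPHO1 and in 31.3% of all. AGATAA or TGATAA (14.6% of all windows) and TGACGTCA (1.65%) were found in none of these 4. RefSeq lists 3 starts for ALPL, at 21508984, 21509423 and 21551270, and the window printed is that of 21509423, the nearest to the start of the gene in GENCODE release 29. The windows of the other 2 starts held 0 GC boxes each, with a G and C content of 60.4% and 49.6%. That of 21551270 held AGATAA or TGATAA 1 time, and that of 21508984 held CCACCC 3 times, counting both strands. The counts are per gene and do not separate the starts. Of the members not printed, NT5E had a window with 2 GC boxes and a G and C content of 75.2%. Those of ALPP (62.8%), PHOSPHO2 (59.6%) and ENTPD1 (42% to 60.4% over its starts) held 0 GC boxes.

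ALPL, on chromosome 1 (21508984 to 21578410, GRCh38.p14), was nearly silent without butyrate and expressed in every treated library. In the order of replicates 1, 2 and 3, which is kept throughout, WT libraries had 0, 4 and 0 counts untreated against 77, 255 and 166 with butyrate. Untreated KO libraries held 4, 6 and 4 counts, and treated KO libraries 126, 302 and 94. In both genotypes every treated library lay above every untreated one, and replicate 2 was the highest of its treated group. In CPM (counts relative to library size, with trimmed-mean or TMM scaling), the level went from 0.0618 ± 0.107 (SD, n = 3) to 6.71 ± 3.66 in WT and from 0.211 ± 0.0758 to 6.26 ± 3.50 in KO.

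Since the untreated level rested on few counts, the size of the increase was taken from counts summed over each group. The treated to untreated ratio of ALPL was 117 in WT (95% interval 45.4 to 431) and 31.3 in KO (18.5 to 57.6). These intervals cover counting error only. The fitted log2 change was 6.71 (SE 0.99) in WT and 4.88 (SE 0.87) in KO. The WT value rested on the 4 counts of 1 untreated library, and without replicate 2 of untreated WT it was 10.39.

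The treated levels of ALPL did not separate the genotypes. KO against WT gave a log2 difference of -0.10 in treated cells (95% interval -1.71 to 1.504, edgeR adjusted p = 0.944), and its sign turned to 0.44 without replicate 2 of treated WT. In untreated cells the difference was 1.73 (-0.68 to 4.14, edgeR adjusted p = 0.270), and it depended on the same 4 counts. Without replicate 2 of untreated WT it was 5.41, and the remaining untreated WT libraries held 0 counts, so no call is read from that fit. The genotype groups overlapped in both comparisons.

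ALPP and ALPI lie on chromosome 2 and had 0 counts in all 12 libraries, as had ALPG, the germ cell alkaline phosphatase gene between them. A count of 0 allows up to 3 counts, which is 0.0953 to 0.162 CPM depending on the library and 0.0101 CPM over the 12 libraries together. ALPL was thus the only one of the 4 alkaline phosphatase genes with a count in these libraries. ALPP and ALPG are close copies, and how reads shared between copies were counted is not given in the sources used here.

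PHOSPHO1, on chromosome 17 (49223366 to 49230787), followed the same course. WT libraries held 0, 0 and 2 counts untreated and 77, 91 and 127 treated. KO libraries held 0, 2 and 8 counts untreated and 43, 325 and 276 treated. Treated WT libraries were nearly equal once scaled, at 3.99, 3.88 and 4.03 CPM, whereas treated KO libraries spread from 1.97 to 10.7 CPM with replicate 1 the lowest.

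The PHOSPHO1 ratio of summed counts was 139 in WT (95% interval 38.1 to 1151) and 54.0 in KO (29.2 to 113). The fitted log2 change was 6.94 (SE 1.10) in WT and 5.72 (SE 0.95) in KO, and the WT value was 9.61 without replicate 3 of untreated WT, which held its 2 counts. The genotypes overlapped in both conditions. KO against WT gave a log2 difference of 2.08 in untreated cells (95% interval -0.76 to 4.91, edgeR adjusted p = 0.258) and 0.86 in treated cells (-0.84 to 2.56, edgeR adjusted p = 0.474). The untreated value was 0.72 when replicate 3 of untreated KO was dropped and 4.73 when replicate 3 of untreated WT was.

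**Figure D1:**
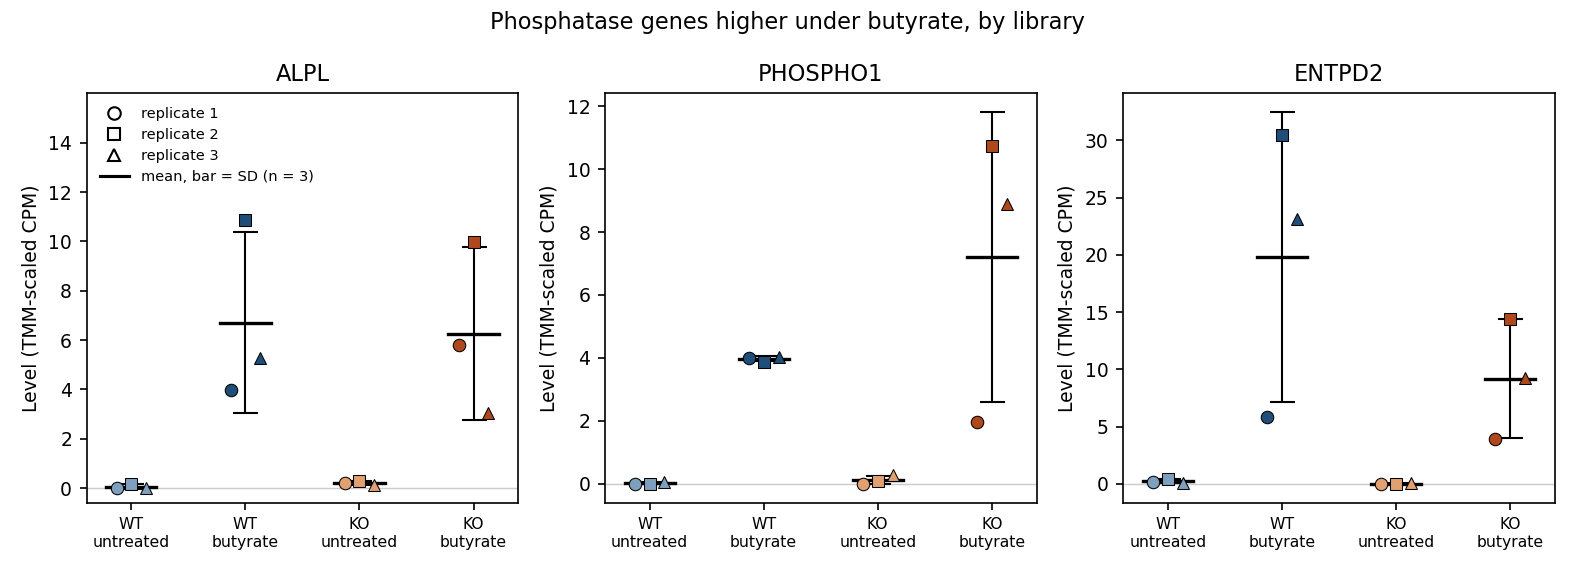
Level of ALPL, PHOSPHO1 and ENTPD2 in each library (TMM-scaled CPM, linear axes), by group on the horizontal axis, with marker shapes for the replicate number, the mean as a line and the SD as a bar (n = 3). Untreated libraries sit near 0 for each gene, while treated means run from 3.97 CPM for PHOSPHO1 in WT to 19.8 CPM for ENTPD2 in WT.

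PHOSPHO2, a relative of PHOSPHO1 with reported activity on pyridoxal phosphate, was expressed without butyrate. WT libraries held 5.41, 4.64 and 7.36 CPM untreated and 5.54, 9.04 and 10.6 CPM treated. KO libraries held 3.21, 5.85 and 4.25 CPM untreated and 4.13, 4.06 and 8.12 CPM treated. The treated and untreated groups overlapped in both genotypes. The butyrate change was 0.53 in WT on the log2 scale (95% interval -0.40 to 1.46, edgeR adjusted p = 0.540) and 0.29 in KO (-0.64 to 1.23, edgeR adjusted p = 0.740), and the KO sign turned to -0.10 without replicate 3 of treated KO. KO against WT gave -0.39 untreated (edgeR adjusted p = 0.545) and -0.63 treated (edgeR adjusted p = 0.324).

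ENTPD2, on chromosome 9 (137048107 to 137054061), reached the highest mean treated level per exon length of the 3 genes chosen for their response. WT libraries held 3, 9 and 3 counts untreated and 112, 714 and 728 treated. KO libraries held 0, 0 and 3 counts untreated and 86, 435 and 288 treated. Replicate 1 was the lowest treated library in both genotypes, at 21.7% of the mean of the other two in WT and 33.4% in KO.

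Mean ENTPD2 levels went from 0.227 ± 0.168 (SD, n = 3) to 19.8 ± 12.7 CPM in WT and from 0.0334 ± 0.0579 to 9.20 ± 5.21 CPM in KO. The ratio of summed counts was 97.4 in WT (95% interval 58.9 to 175) and 226 in KO (77.1 to 1098). The fitted log2 change was 6.45 (SE 0.89) in WT and 7.64 (SE 1.03) in KO, and the KO value was 10.79 without replicate 3 of untreated KO, which held the 3 counts. KO libraries were lower on average than WT libraries, with a log2 difference of -1.11 in treated cells (95% interval -2.65 to 0.44, edgeR adjusted p = 0.293) and of -2.29 in untreated cells (-4.99 to 0.41, edgeR adjusted p = 0.189). In untreated cells the groups did not overlap, yet the closest libraries held 3 counts each, and the difference was -5.47 when replicate 3 of untreated KO was dropped and -1.51 when replicate 2 of untreated WT was.

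ENTPD1, on chromosome 10 (95694185 to 95877266), was expressed in all 12 libraries and was higher in KO. WT libraries held 26.5, 16.1 and 15.7 CPM untreated and 15.1, 12.03 and 12.1 CPM treated. KO libraries held 44.2, 46.8 and 41.8 CPM untreated and 41.8, 41.3 and 39.0 CPM treated. Every KO library lay above every WT library in both conditions.

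The KO against WT difference of ENTPD1 was 1.19 on the log2 scale in untreated cells (SE 0.23, edgeR adjusted p = 0.00235) and 1.64 in treated cells (SE 0.23, edgeR adjusted p = 0.000378), or 2.28-fold and 3.11-fold. It passed the threshold of 0.05 in all 6 fits that left out 1 library of the contrast and in all 7 other settings, in both conditions. The two-sided exact permutation test gave p = 0.1 for each, the smallest that 3 libraries against 3 allow. Of the 5 members tested, ENTPD1 was the 1 called in each genotype comparison, where 22.6% of all 15805 tested genes were called in untreated cells and 19.0% in treated cells. Groups did not overlap and were higher in KO for 22.2% of tested genes in untreated cells and 17.9% in treated cells, and lower in KO for 20.2% in untreated cells, the direction of ENTPD2. In bulk RNA, a larger share of cells with a transcript and more of it per cell cannot be told apart.

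Under butyrate ENTPD1 did not pass the test. Treated libraries were lower than untreated ones without overlap in both genotypes, in KO by a margin of 41.81 against 41.78 CPM. Scaled by library size alone, the KO means were 43.03 and 43.01 CPM. The log2 change was -0.57 in WT (95% interval -1.09 to -0.05, edgeR adjusted p = 0.206) and -0.12 in KO (-0.64 to 0.39, edgeR adjusted p = 0.815). Lower levels without overlap were seen in 10.4% of tested genes in WT and 11.8% in KO. The antisense gene ENTPD1-AS1 held between 3 and 52 counts per library, and without a stated use of strand its reads cannot be told apart from those of ENTPD1.

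NT5E had 3 counts in all, 1 in replicate 3 of treated WT and 2 in replicate 2 of treated KO, below the limit of 3 counts in each library.

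**Figure D2:**
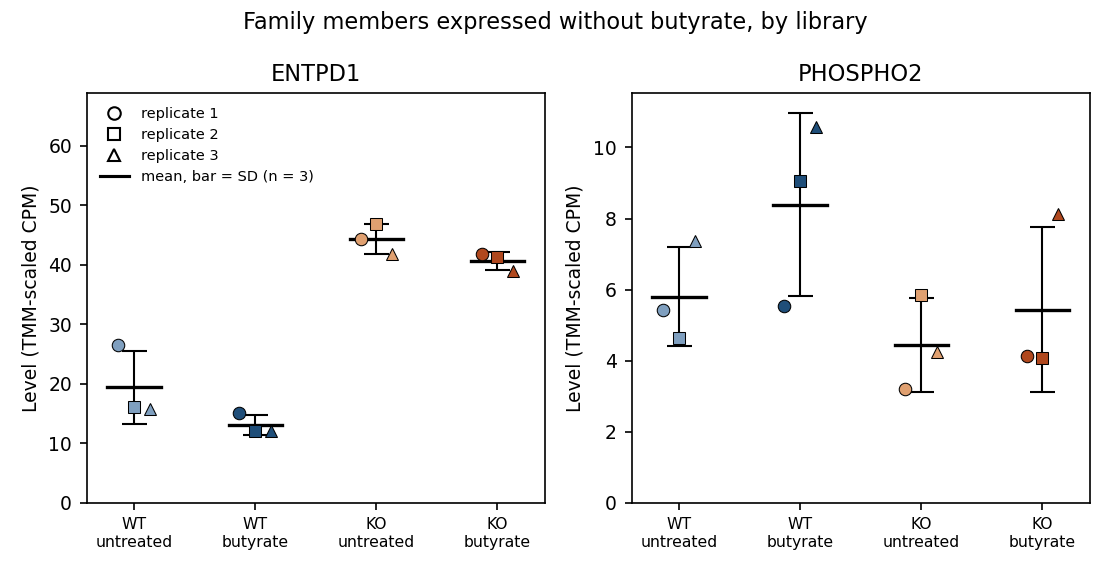
Level of ENTPD1 and PHOSPHO2 in each library (TMM-scaled CPM, axes from 0), by group on the horizontal axis, with the mean as a line and the SD as a bar (n = 3). ENTPD1 lies between 39.0 and 46.8 CPM in the KO libraries and between 12.03 and 26.5 CPM in the WT libraries, while the PHOSPHO2 groups overlap.

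The share of all tested genes called under butyrate was 2.35% in WT and 3.40% in KO, and groups were higher under butyrate without overlap in 11.3% and 12.6%. ALPL, PHOSPHO1 and ENTPD2 were higher without overlap in both genotypes, from which nothing is read, since their increase chose them. By log2 change they ranked 38, 29 and 46 among the 15805 genes in WT and 224, 142 and 24 in KO. Neither ENTPD1 nor PHOSPHO2 was called under butyrate.

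The change in KO minus that in WT was -1.83 for ALPL (SE 1.25), -1.22 for PHOSPHO1 (SE 1.36) and 1.19 for ENTPD2 (SE 1.31) on the log2 scale, given as a description. Single untreated libraries moved each value. For ALPL it was -5.51 without replicate 2 and -1.15 without replicate 3 of untreated WT. For PHOSPHO1 it was -3.90 without replicate 3 of untreated WT and 0.11 without replicate 3 of untreated KO. For ENTPD2 it was 0.41 without replicate 2 of untreated WT and 4.34 without replicate 3 of untreated KO. The interaction called 0% of tested genes by edgeR, with 658 genes at an unadjusted p under 0.05, and 81 genes were called by DESeq2.

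**Figure D3:**
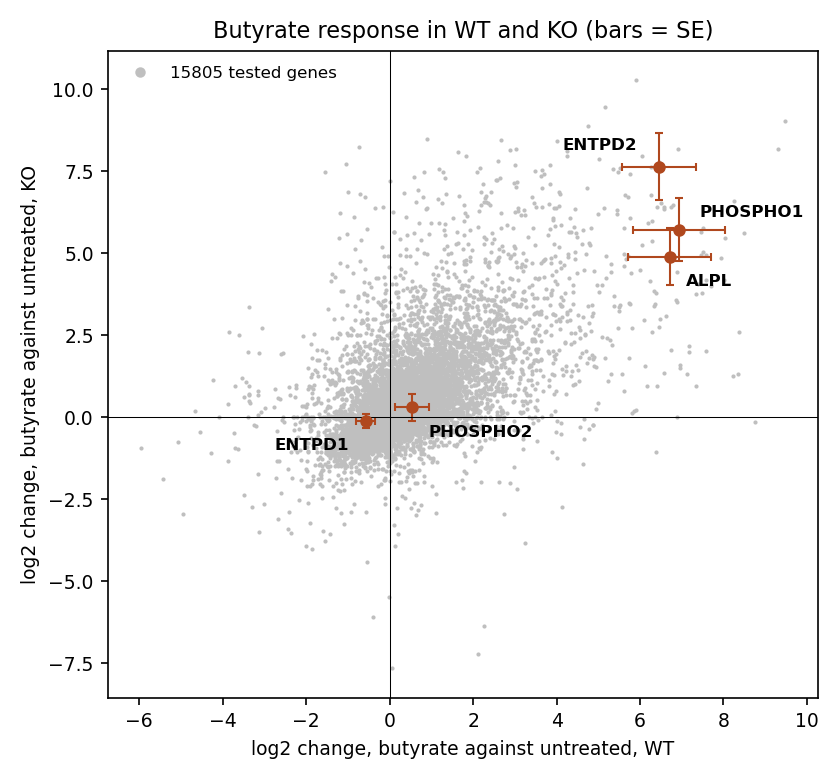
Log2 change under butyrate in WT (horizontal) against KO (vertical) for all 15805 tested genes (grey) and the 5 tested members (red, bars = SE). ALPL, PHOSPHO1 and ENTPD2 lie at 6.45 to 6.94 in WT and at 4.88 to 7.64 in KO, and ENTPD1 and PHOSPHO2 lie near 0.

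Per kilobase of exon, the leading gene changed with butyrate in WT by its mean, and in KO ENTPD1 and PHOSPHO2 led in both conditions. In untreated WT, PHOSPHO2 (3.90 CPM per kb) and ENTPD1 (2.78) stood above the others, which were at 0.0862 or less, and these first 2 overlapped. In treated WT, ENTPD2 came first at 7.52 CPM per kb, followed by PHOSPHO2 (5.64), ALPL (2.23), ENTPD1 (1.87) and PHOSPHO1 (1.67). ENTPD2 overlapped PHOSPHO2 there, and ALPL overlapped ENTPD1. In untreated KO, ENTPD1 (6.35 CPM per kb) and PHOSPHO2 (2.98) stood apart from each other and from the rest, which were at 0.0702 or less. In treated KO, ENTPD1 stood above all others at 5.83 CPM per kb, and PHOSPHO2 (3.65), ENTPD2 (3.49), PHOSPHO1 (3.03) and ALPL (2.08) overlapped from 1 to the next.

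Within the treated libraries the 3 genes did not share 1 ranking. Replicate 2 was highest for ALPL in both genotypes, replicate 1 was lowest for ENTPD2 in both, and PHOSPHO1 was even across WT. Over the 6 treated libraries, Pearson's r of log2 CPM was -0.004 between ALPL and PHOSPHO1, 0.54 between ALPL and ENTPD2 and 0.32 between PHOSPHO1 and ENTPD2, given as a description of libraries that share the treatment and span both genotypes. Without the libraries numbered 1, the fitted log2 changes of the 3 genes in WT were 6.55, 6.51 and 6.75, and in KO they were 4.97, 5.63 and 7.54, in the order ALPL, PHOSPHO1, ENTPD2.

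Across all 12 libraries the genes most like each of the 3 were found by Pearson's r of log2 CPM, again as a description. For ALPL they were C18orf25 (r = 0.97), ZDHHC3, CEACAM22P, NPL and RTN4RL2. For PHOSPHO1 they were NCCRP1 (r = 0.98), COL1A1 (0.97), LOC100420587, MYLIP and SNCB. For ENTPD2 they were C1QL1 (r = 0.98), MYH14 (0.97), SCPEP1, BIK and TINAGL1. All 15 had higher mean levels with butyrate in both genotypes, from which nothing is read, since they were picked by likeness to genes chosen for that increase. The 3 lists had no gene in common, though r among ALPL, PHOSPHO1 and ENTPD2 over the same 12 libraries was 0.91 to 0.92.

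The gene nearest to ENTPD2 differed between groups. NPDC1, a neural proliferation gene 1930 bases from ENTPD2, held 0.650, 0.742 and 1.41 CPM in untreated WT and 7.46, 38.3 and 17.3 CPM in treated WT. It held 9.84, 14.3 and 21.4 CPM in untreated KO and 22.8, 51.3 and 62.8 CPM in treated KO. Treated libraries lay above untreated ones in both genotypes, and untreated KO lay above untreated WT, which was not the direction of ENTPD2.

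NPDC1 rose by 4.46 on the log2 scale under butyrate in WT (edgeR adjusted p = 0.00691, 0.052 without replicate 2 of untreated WT). In KO the change was 1.59 (edgeR adjusted p = 0.131, and 0.0165 with the replicate number as a block). Untreated KO was higher than untreated WT by 3.99 (edgeR adjusted p = 0.000674), the treated difference was 1.12 (edgeR adjusted p = 0.178, and 0.0217 with the block), and the interaction of -2.87 did not pass (edgeR adjusted p = 0.600). On the other side, SAPCD2 at 8066 bases was not called under butyrate (edgeR adjusted p = 0.607 in WT and 0.195 in KO). UAP1L1, 23456 bases away on that side, rose by 1.38 in KO (edgeR adjusted p = 0.0262, passing in 2 of 6 fits that left out a library, with a highest of 0.134 without replicate 2 of untreated KO) and had a change of 0.97 in WT (edgeR adjusted p = 0.0970, and 0.0264 with the block). Untreated KO was lower than untreated WT for UAP1L1, at 7.48 against 16.7 CPM (edgeR adjusted p = 0.0116), the direction of ENTPD2.

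**Figure D4:**
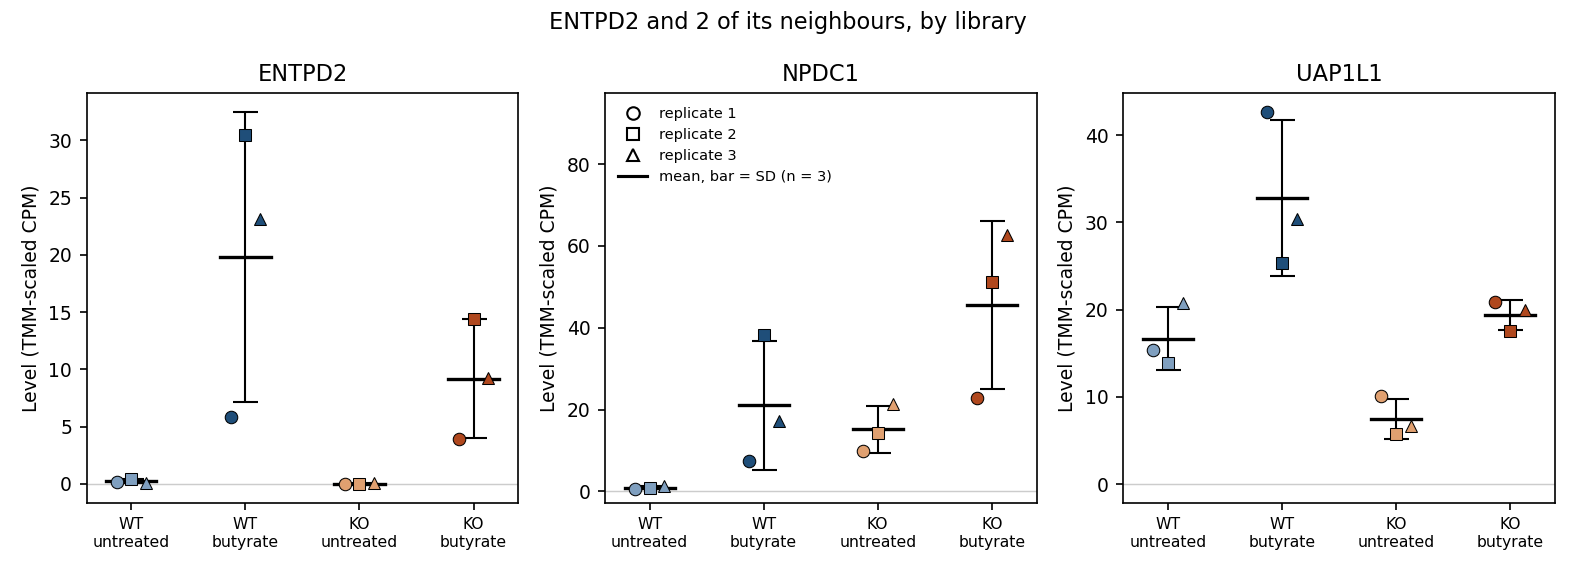
Level of ENTPD2 and its neighbours NPDC1 and UAP1L1 in each library (TMM-scaled CPM, a separate axis for each gene), by group, with the mean as a line and the SD as a bar (n = 3). ENTPD2 is near 0 in both untreated groups, whereas NPDC1 has a mean of 15.2 CPM in untreated KO and 0.934 CPM in untreated WT.

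Around ALPL, none of NBPF3, ECE1, RAP1GAP and USP48 was called under butyrate in either genotype. RAP1GAP, 17811 bases away, went from 50.4 to 66.3 CPM in WT (edgeR adjusted p = 0.380) and from 40.0 to 59.8 in KO (edgeR adjusted p = 0.167). Beside PHOSPHO1, ABI3 lies 141 bases away and held 0 to 17 counts per library, with its 2 highest in treated KO, and GNGT2 held 0 to 17 with its 3 highest in treated KO. Neither passed the filter. On the other side of PHOSPHO1, FLJ40194 had 0 counts in all. ZNF652, 57330 bases away on that side, was not called under butyrate (edgeR adjusted p = 0.816 in WT and 0.680 in KO).

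The wider pathways were described with 7 lists of related genes, the members left out, of which 78 genes were tested. Under butyrate 0 of the 78 were called in WT by edgeR, with 18 at an unadjusted p under 0.05, 9 called by DESeq2 and 8 with the replicate block. Over all 15805 tested genes these counts were 372 (2.35%), 2849, 1331 and 1361. In KO 1 was called, which is 1.28% beside 3.40% of all genes, with 18 at an unadjusted p under 0.05, 8 by DESeq2 and 6 with the block. Over all genes these were 537, 3122, 1538 and 1852. The 1 called in KO was ETNK2, an ethanolamine kinase in the route that makes phosphoethanolamine, a substrate of PHOSPHO1. ETNK2 went from 0.200 to 5.03 CPM in KO (log2 change 4.66, edgeR adjusted p = 0.0334), and passed in 1 of 6 fits that left out a library, where dropping replicate 2 of untreated KO gave the highest adjusted p, 0.141. In WT its level went from 1.26 to 11.5 CPM.

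Between genotypes, 25 of the 78 genes were called in untreated cells (32.1% beside 22.6% of all genes), 11 higher and 14 lower in KO, and 18 were called in treated cells (23.1% beside 19.0%), 8 higher and 10 lower. One list had 6 tested genes of the ENTPD and ENPP families, ENTPD3, ENTPD5, ENTPD6, ENTPD7, ENTPD8 and ENPP3. Among them ENPP3, which hydrolyses extracellular nucleotides, went from 42.7 ± 9.48 CPM in untreated WT to 0.0401 ± 0.0354 in untreated KO (SD, n = 3, edgeR adjusted p = 4.87e-06) and from 22.9 to 0.101 CPM in treated cells (edgeR adjusted p = 1.54e-05). It was the 1 of the 6 called in untreated cells. The list's median log2 difference was -1.505 untreated, beside 0.02 for all tested genes. In treated cells ENTPD6 was also higher in KO (34.8 against 62.7 CPM, edgeR adjusted p = 0.0130, 0.0557 without replicate 3 of treated KO). ENTPD3 was lower (5.37 against 0.716 CPM, edgeR adjusted p = 0.0463), though it passed in 1 of 6 fits that left out a library, with a highest adjusted p of 0.148 without replicate 2 of treated KO.

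Receptors for the nucleotides that ENTPD1 and ENTPD2 act on were also among the genotype differences. P2RY1, an ADP receptor, went from 55.7 CPM in untreated WT to 0.0515 in untreated KO (edgeR adjusted p = 4.87e-06) and from 42.0 to 0.0881 in treated cells (edgeR adjusted p = 1.00e-05). P2RX1, an ATP-gated channel, went from 24.4 to 0.0317 CPM untreated (edgeR adjusted p = 0.000827) and from 16.7 to 0.433 treated (edgeR adjusted p = 0.00674). P2RX5, another ATP-gated channel, went the other way in untreated cells, from 0.652 to 3.98 CPM (edgeR adjusted p = 0.0184), passing in 3 of 6 fits that left out a library. The calls of P2RY1, P2RX1 and ENPP3 passed in every fit that left out 1 library. ADA, which removes adenosine, was higher in KO, at 21.0 against 61.3 CPM untreated (edgeR adjusted p = 0.0150) and 21.2 against 56.3 treated (edgeR adjusted p = 0.0271, passing in 3 of 6 fits that left out a library, with a highest of 0.116 without replicate 3 of treated KO). Of 11 tested genes in this list, 2 were higher and 3 lower in untreated KO, beside 11.7% and 10.9% of all tested genes, and 1 was higher and 2 lower in treated KO, beside 10.1% and 8.89%. The 5 untreated calls became 2 without replicate 3 of untreated WT or of untreated KO, and 3 without replicate 1 or 2 of untreated WT.

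**Figure D5:**
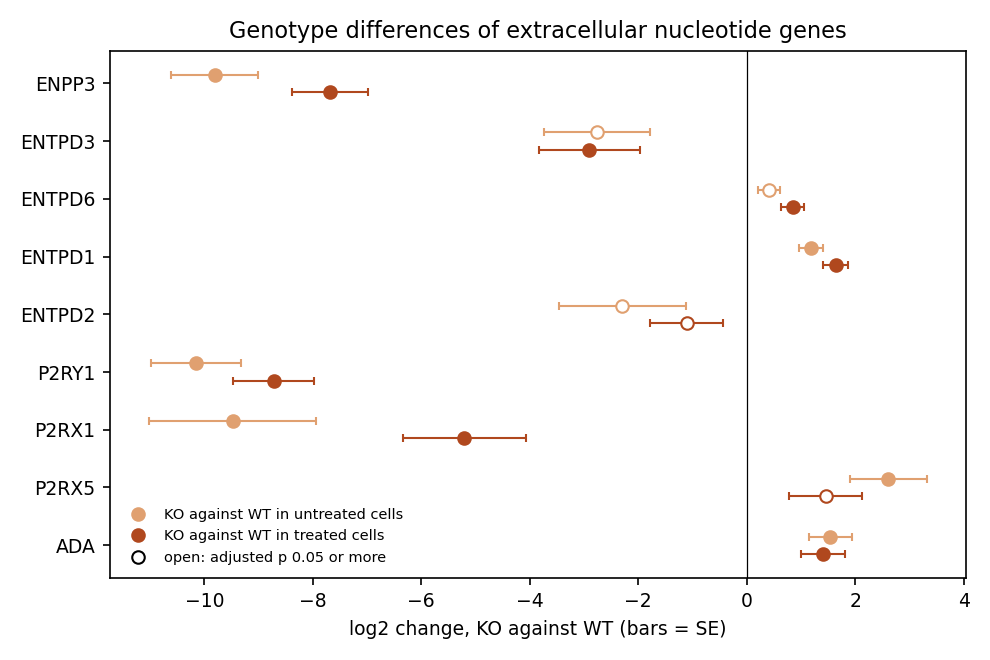
Log2 difference of KO against WT (horizontal axis, bars = SE) for ENTPD1, ENTPD2 and named genes of the ENTPD and ENPP families, purine receptors and adenosine handling, in untreated and treated cells, with open symbols where the edgeR adjusted p was 0.05 or more. ENTPD1 lies at 1.19 and 1.64, while P2RY1 lies at -10.15 and -8.72.

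In untreated cells 11.7% of all tested genes were called higher and 10.9% lower in KO, and the lists are given beside these shares. Of all 15805 tested genes, 5216 were called there with the block and 5475 had an unadjusted p under 0.05. Among 5 tested acid phosphatases, 2 were higher and 1 lower in untreated KO. ACP6, a lysophosphatidic acid phosphatase, went from 0.359 to 13.9 CPM (edgeR adjusted p = 0.000621), and ACP5, the tartrate-resistant form, from 1.86 to 32.9 CPM (edgeR adjusted p = 0.00422). Of 24 tested genes of GPI anchor attachment, on which alkaline phosphatases and NT5E depend for their place on the membrane, 4 were higher and 2 lower in untreated KO (10 called with the block, and 1 to 3 whichever of the 6 libraries was left out), PGAP1 being at 2.68 CPM in WT and 13.1 in KO (edgeR adjusted p = 0.00127). Of 10 tested genes of phosphate, pyrophosphate and vitamin B6, 2 were higher and 2 lower, with the pyrophosphate exporter gene ANKH at 35.2 CPM in WT and 8.72 in KO (edgeR adjusted p = 0.000176). Of 13 tested head group enzymes, 1 was higher and 3 lower, with PCYT2, which activates phosphoethanolamine, at 142 CPM in WT and 57.3 in KO (edgeR adjusted p = 0.000380). Of 9 tested intracellular nucleotidases, 2 were lower and 0 higher by edgeR, with 2 of the 9 at an unadjusted p under 0.05, and 1 called without replicate 1 or 2 of either untreated group.

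Depth ranged from 19963594 to 30348538 counts per library. SLC48A1 was at 73.7 ± 8.41 CPM in untreated WT and 5.94 ± 2.74 in untreated KO (SD, n = 3, edgeR adjusted p = 1.82e-05). All 11 erythroid and K562 markers were detected in every group, and their summed level was 3739 to 6525 CPM in KO libraries and 8305 to 56970 in WT libraries. Markers of other tissues known for alkaline phosphatase were partly absent. Of 10 osteoblast markers IBSP, SPP1 and DMP1 were at 0 in every group, and the summed level of 7.96 to 28.2 CPM in untreated and 45.9 to 199 CPM in treated libraries included COL1A1 at a mean of 80.8 CPM in treated WT and 96.9 in treated KO, and SP7 at 0.702 and 37.6. COL1A1 rose by 4.71 in WT (edgeR adjusted p = 0.00273) and 4.96 in KO (edgeR adjusted p = 0.00211). RUNX2 went the other way, from 10.05 to 4.78 CPM in WT (edgeR adjusted p = 0.452) and from 12.1 to 4.16 in KO (edgeR adjusted p = 0.235). Of the 4 osteoblast markers tested, SP7 was called higher and COL1A2 lower (0.393 against 0 CPM) in untreated KO. Of 13 neutrophil markers, S100A8 was at 0 in every group, and the list summed to 13.2 to 84.6 CPM untreated and 23.7 to 147 CPM treated. CSF3R was higher in KO, at 2.00 against 38.2 CPM untreated (edgeR adjusted p = 0.000924) and 4.09 against 62.9 treated (edgeR adjusted p = 0.00163), CEBPE was at 3.27 against 28.3 CPM in treated cells (edgeR adjusted p = 0.0440), and MMP9 was called higher under butyrate in KO (0.141 to 2.56 CPM). Of the 8 neutrophil markers tested, 2 were called higher and 1 lower in untreated KO, and 3 higher and 0 lower in treated KO. The lower one was MME, at 1.36 CPM in untreated WT against 0.170 in untreated KO. Of 9 trophoblast markers CGA and PSG1 were at 0, and of 8 enterocyte markers SI was at 0, with sums of at most 24.3 and 49.7 CPM. The trophoblast marker TFAP2A was called higher in KO in both conditions (1.33 against 20.1 CPM untreated). Of the enterocyte markers, VIL1 was called higher under butyrate in WT (1.20 to 5.79 CPM, edgeR adjusted p = 0.0240) and ANPEP in KO (4.47 to 25.5 CPM, edgeR adjusted p = 0.00855). In WT, ANPEP went the other way under butyrate, from 36.7 to 22.3 CPM (edgeR adjusted p = 0.344). Untreated KO was lower than untreated WT for ANPEP (edgeR adjusted p = 0.000209). Of 7 lymphocyte markers MS4A1 was at 0, and the list summed to 35.0 to 108 CPM in WT and 5.72 to 13.9 CPM in KO. The part of these markers in the results above was not tested.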

How the data were processed

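RNA-seq libraries of 4 groups (3 each) were grouped and numbered by sample title. The authors deposited 1 table of counts, whole numbers by gene symbol, and 0 columns were left unused. Per the submitters' processing notes, FastQC 0.12.1, STAR 2.7.11b and hg38 were used, with no stated role. The counting tool, annotation and use of strand are not given in the sources used here, which matters for overlapping and near-identical genes. Totals ranged from 19963594 to 30348538 counts. Replicates of a group differed by more than sampling noise, with a chi-square per degree of freedom of at least 39.95.

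Counts were fitted in R 4.3.3 with edgeR 4.0.16 (filterByExpr with a minimum count of 10, TMM scaling, a mean per group over 12 libraries, quasi-likelihood F-test). Benjamini-Hochberg adjustment ran over 15805 genes in each of 5 contrasts, with a threshold of 0.05. Intervals of log2 changes use 8 residual degrees of freedom at 95%. Correlations used log2 CPM with a prior count of 2. Exon lengths came from GENCODE release 29 and promoters from RefSeq. The fit was run on simulated independent libraries, with changes set only in genes with a mean above 5 CPM. It therefore does not cover the few untreated counts of ALPL, PHOSPHO1 and ENTPD2.

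Members and lists were chosen with earlier results of these data known. Named genes are the members, ALPG, SLC48A1, up to 3 called genes per list and contrast with the largest change, the 5 most alike genes, the 2 nearest genes on each side and marker genes. ADA in untreated cells was added after its values were seen. Same-numbered libraries deviated together from their group means (correlations over genes of 0.195 to 0.409 and 0.147 to 0.468 in the WT and KO butyrate contrasts, 0.210 to 0.361 and 0.315 to 0.595 in the untreated and treated genotype contrasts). Libraries of different numbers gave -0.439 to 0.1865, -0.441 to 0.123, -0.288 to 0.0692 and -0.512 to 0.3425 in the same order, so in treated cells the ranges overlapped. The numbers were taken to pair the libraries. The main fit has no term for the number, so its p-values leave this pairing out, and the replicate block is the fit that uses it. Alternatives were DESeq2 1.42.0, other scalings and filters, the replicate block and leaving out libraries.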

Additional observations from a re-analysis of the deposited data

How the results depend on the processing

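Without butyrate ALPL, PHOSPHO1 and ENTPD2 rest on a few counts, which limits every fold of theirs. A filter of at least 10 counts in every library removed these 3 genes, so that setting gave no value for them.

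The count of genes called under butyrate depended on the setting. In WT it was 372, against 1331 with DESeq2 and 1884 without the libraries numbered 1, and 43 to 1243 when 1 library was left out. In KO it was 537, against 1538 with DESeq2, 304 with at least 10 counts in every library and 2164 without the libraries numbered 1, and 48 to 833 when 1 library was left out. With that strict filter the genotype counts fell from 3574 to 2328 untreated and from 3009 to 1954 treated, where fewer genes were tested. With the replicate block the counts were 1361 under butyrate in WT, 1852 in KO, 4611 between genotypes in treated cells and 3 for the interaction. The block changed no call of a member. The interaction called 0 genes, against 81 with DESeq2, 2 with no filter, 1 with the strict filter and 9 without the libraries numbered 1, and 0 to 2 when 1 library was left out.

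Among the members, ENTPD1 kept its genotype calls under every alternative run. Signs turned for results that had not passed: ALPL between genotypes in treated cells (-0.63 to 0.44 when 1 library was left out, 0.22 without replicate 3 of treated KO), PHOSPHO2 under butyrate in KO (-0.10 to 0.54), the PHOSPHO1 interaction (-3.90 to 0.11) and the PHOSPHO2 interaction (-0.64 to 0.0103). ALPL between genotypes in untreated cells ranged from 1.03 to 5.41 and passed without replicate 2 of untreated WT. The remaining untreated WT libraries held 0 counts of ALPL, so nothing is read from that pass. The cause was not tested.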
